A study of Mus musculus with 24 samples.

Results

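The livers of 12 wild-type mice, 6 females and 6 males, were compared for the expression of genes on the autosomes, chromosomes 1 to 19. These are the 12 samples labelled CARWT among the 24 of the series, and of the 31343 probes in the deposited table of log2 values the 29947 that the array design places on an autosome were used. They stand for 21122 genes, each represented by its probe with the highest mean over the 24 arrays. The WT mice were C57 BL/6J mice aged 16 weeks. They carried the intact gene of the constitutive androstane receptor (CAR, Nr1i3), were kept on a standard diet with free access to food, and were killed in the dark phase in the fed state. The other 12 mice, 6 CAR-/- females and 6 CAR-/- males of the same background and age, lack this receptor and enter here as arrays that share the estimate of the spread and in the test of whether the sexes differ by the same amount without CAR. RNA of each liver was labelled with Cy3 and hybridized to 1 one-color Agilent array. All values below are log2 signals of quantile normalized arrays, and a difference is that of WT females minus WT males.

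In rodents the pituitary secretes growth hormone in pulses in males and almost continuously in females, and the liver reads this pattern through the growth hormone receptor, the kinase JAK2 and the transcription factor STAT5B. Male hepatocytes are known for the repressor BCL6 and female hepatocytes for CUX2, and a large share of the enzymes that process steroids, bile acids, fatty acids and foreign compounds is expressed more in one sex. The liver also houses resident macrophages (Kupffer cells) and many T and NK cells, so the RNA of a whole liver carries immune transcripts as well as those of hepatocytes.

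A gene was called when its adjusted p was below 0.05 (limma, Benjamini-Hochberg over all 31343 probes) and its fold above 1.5. By this rule 827 autosomal genes were higher in WT females (3.92% of 21122) and 606 were higher in WT males (2.87%), 1433 in all (6.78%). Most differences were small, with a median fold of 1.74 among the genes higher in females and 1.83 among those higher in males. At the other end, 36 genes were more than 8-fold higher in females and 21 more than 8-fold higher in males, and 17 and 9 of them differed more than 32-fold. With a minimum of 2-fold the counts were 245 and 252, so the surplus of genes higher in females came from differences below 2-fold. The 6 arrays of one sex lay entirely beyond the 6 of the other for 532 of the genes called higher in females and 402 of those called higher in males, while this was so for 5.10% and 4.30% of all autosomal genes tested. The called genes were spread over all autosomes, from 2.50% of the genes of chromosome 2 to 5.52% of those of chromosome 19 for females, and from 1.87% on chromosome 12 to 4.0% on chromosome 3 for males.

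**Figure D1:**
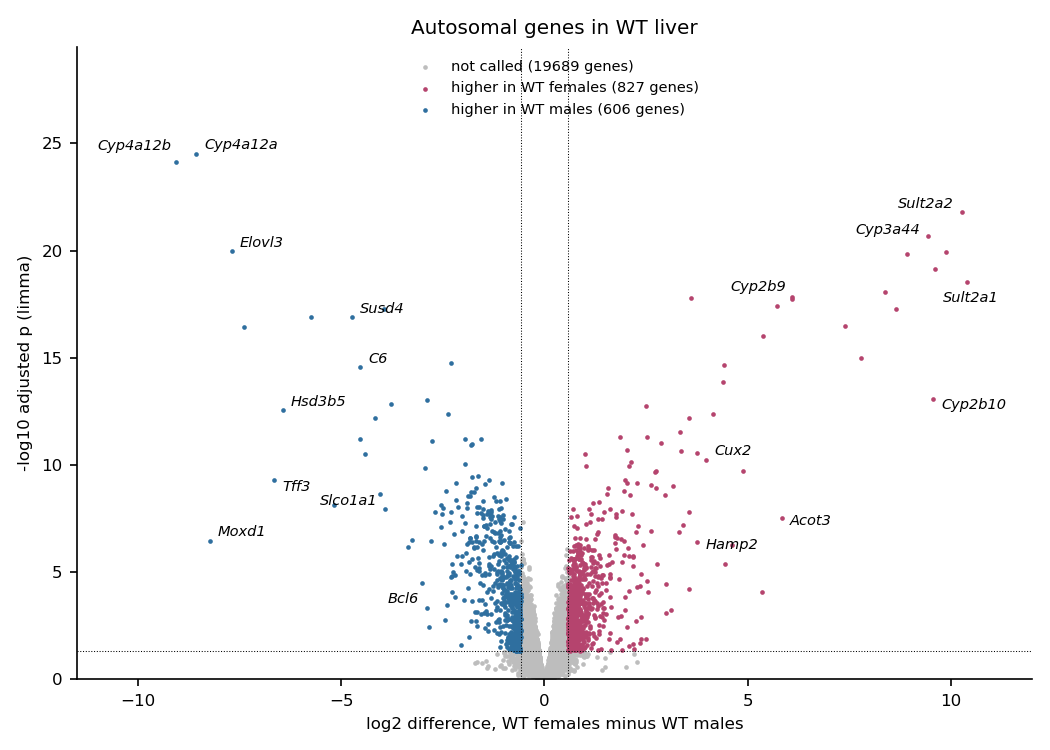
Difference between WT females and WT males (x axis, log2) and -log10 of the adjusted p (y axis) for 21122 autosomal genes, 1 point per gene; dotted lines mark a fold of 1.5 and an adjusted p of 0.05. The largest differences of measured means are those of Sult2a1 on the female side and Cyp4a12b on the male side. Points of genes not above background in one sex are drawn at the measured means, which are no bound on the fold and do not rank it.

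The labels and the arrays were checked first. Xist and 3 Y-linked genes matched the labelled sex on 12 of 12 WT arrays. Hepatocyte markers such as Alb and Ttr were called for 0 of 12 genes, and their median difference was 0.05, beside -0.01 over all autosomal genes. Probes well above background numbered 28480 to 31602 per array in males and 30499 to 31919 in females, and no spot was saturated. The 12 arrays lay on 4 slides, each of which held both sexes, and of the 1433 called genes 1398 (97.6%) had the same sign of the difference within all 4 slides. The labels do not say whether mice shared a litter or cage. The SE and p-values describe the spread within all 4 groups of the 24 mice, CAR-/- mice included, and not that of the WT mice alone.

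Among the genes of 16 lists of liver metabolism, 81 of 420 tested were higher in females (19.3%) and 35 in males (8.33%). Sulfotransferases, flavin monooxygenases and P450 enzymes had the highest shares toward females and major urinary proteins the highest toward males, while cholesterol synthesis had 0 of 22. Among 11 lists of immune genes, 58 of 263 were higher in females (22.1%) and 7 in males (2.66%), of which 5 were complement genes. In RNA of whole liver, fewer cells of a type and less RNA per cell cannot be told apart.

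**Figure D2:**
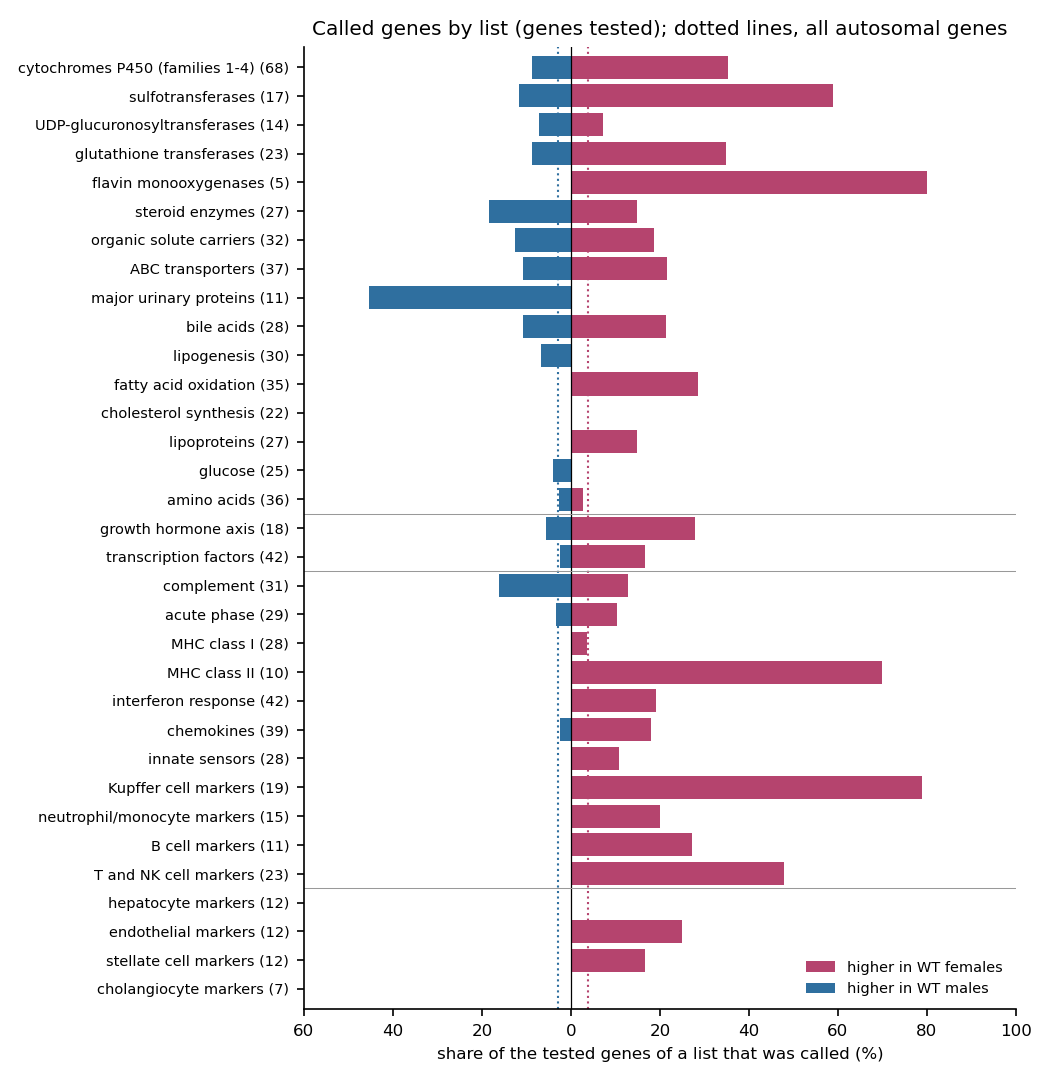
Share of the tested genes of each list (bars, in percent, with the number tested in parentheses) called higher in WT females (right) or in WT males (left); dotted lines show the share of all autosomal genes, 3.92% and 2.87%. Sulfotransferases, flavin monooxygenases, MHC class II genes and Kupffer cell markers reach far to the female side, and major urinary proteins to the male side.

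Cytochromes P450, the heme enzymes that oxidize drugs, steroids and fatty acids, gave 24 of 68 genes higher in females and 6 in males. They are described here by subfamilies that lie together on a chromosome, chosen after their values were seen, with positions of probes in mm9. The 3 Cyp2b genes on chromosome 7, between 26711522 and 26983543, were all higher in females. Cyp2b10, the best known target gene of CAR, ranged from 4.83 to 5.45 in males (median 5.30, well above background on 4 of 6 arrays) and from 14.61 to 15.01 in females (median 14.74), a difference of 9.56 (SE 0.47, adjusted p = 8.18e-14 with limma). Its paralogs Cyp2b9 and Cyp2b13 were not well above background on any male array, and were at least 60.9-fold and at least 287-fold higher in females (adjusted p = 1.47e-18 and 8.85e-19). Such a fold is a lower bound: the mean of the bright group was divided by a floor, which for every dim array was its faintest signal still well above background, or the signal of the probe itself if this was higher. For all 3 genes the lowest female lay far above the highest male.

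The Cyp3a genes on chromosome 5, whose products oxidize steroids and many drugs, were called higher in females for 8 of 8 members, by amounts that ranged widely. Cyp3a44 was not well above background in males (4.62 to 5.01) and lay between 13.72 and 14.73 in females, at least 657-fold higher (adjusted p = 2.18e-21). Cyp3a41b differed by 5.39 and Cyp3a16 by 3.33, whereas Cyp3a11, Cyp3a25, Cyp3a57 and Cyp3a13 differed by 1.26, 0.71, 0.78 and 0.65. The probes of Cyp3a44 and Cyp3a41b share 46 of 53 aligned bases, so that their signals cannot be fully separated. Of 12 Cyp2c genes on chromosome 19, 6 were higher in females, led by Cyp2c68 with a difference of 2.27, and 0 in males. Cyp2a4, a steroid 15-alpha-hydroxylase, ranged from 15.05 to 15.34 in males and from 17.47 to 17.93 in females, a difference of 2.49 (SE 0.13, adjusted p = 1.78e-13). Its probe agrees at 52 of 56 aligned bases with another probe that has no gene symbol.

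The Cyp4a cluster on chromosome 4, whose enzymes hydroxylate fatty acids at their end, held genes of both directions within 115005258 to 115294911. Cyp4a12a ranged from 13.43 to 14.05 in males (median 13.87) and from 4.90 to 5.50 in females (median 5.29), a difference of -8.58 (SE 0.12, adjusted p = 3.01e-25). Cyp4a12b, well above background on 4 of 6 female arrays, gave -9.08 (SE 0.14), 540-fold between the measured means. This was the largest difference of measured means toward males. Its neighbours Cyp4a14, Cyp4a10, Cyp4a31 and Cyp4a32, well known targets of the fatty acid receptor PPARA, had the opposite sign, with 5.35, 3.10, 3.00 and 2.26. Cyp4a14, singled out here after its values were seen, varied within both sexes: it ranged from 9.61 to 14.08 in males (median 10.29) and had a median of 16.40 in females, with 15.63 at most in replicates 1 to 3 and up to 17.72 in replicates 4 to 6. Females 4, 5 and 6 were the 3 highest of their sex for both Cyp4a14 and Cyp4a10, and males 5 and 6 the 2 highest of theirs. In the Cyp2d cluster on chromosome 15 only 2 of 10 genes were called, both higher in males. Cyp2d9, a testosterone 16-alpha-hydroxylase, lay between 15.10 and 15.39 in males and between 10.87 and 11.62 in females, a difference of -3.95 (SE 0.12, adjusted p = 5.34e-18).

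Sulfotransferases, which attach sulfate to steroids, bile acids and other alcohols, were higher in females for 10 of 17 genes and in males for 2, with a median difference of 1.30. The Sult2a genes on chromosome 7, the hydroxysteroid and bile acid sulfotransferases, held the largest difference of measured means in the whole comparison. Sult2a1 lay between 4.48 and 4.87 in males (median 4.59) and between 13.75 and 15.89 in females (median 15.15), at least 1133-fold higher (adjusted p = 3.09e-19). Sult2a2, Sult2a6 and Sult2a4 were at least 1156-fold, 668-fold and 286-fold higher (adjusted p = 1.61e-22, 7.66e-20 and 5.36e-18), and none of the 4 was well above background on any of the 6 male arrays. These probes do not tell the paralogs apart with certainty: those of Sult2a1 and Sult2a2 agree at 54 of 59 aligned bases and those of Sult2a1 and Sult2a4 at 51 of 54. The last 30 bases over which the 3 probes line up are shown for that reason, with letters that differ from Sult2a1 in capitals.
Sult2a1: gatgtggtcatagaataaaacctgttgtgg
Sult2a2: AatAtggtcatagaataaaacctgttgtgg
Sult2a4: gatgtggtcatagaataaaTcctgttCtgg
One member of the cluster went the other way. Sult2a8 ranged from 15.45 to 15.59 in males and from 13.78 to 14.55 in females, a difference of -1.44 (SE 0.15, adjusted p = 2.00e-07). Outside the cluster, Sult3a1 on chromosome 10 was not well above background in males and reached 11.85 to 12.58 in females, at least 173-fold higher (adjusted p = 1.02e-15). Sult5a1 on chromosome 8 was higher in males, with a difference of -1.44 (SE 0.28, adjusted p = 0.000675).

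The flavin monooxygenases, which oxidize nitrogen and sulfur atoms of amines and drugs, were higher in females for 4 of 5 genes. Fmo2 ranged from 8.29 to 9.66 in males (median 8.69) and from 10.56 to 11.13 in females (median 10.93), a difference of 2.11 (SE 0.17, adjusted p = 2.61e-09). Fmo4 and Fmo1 differed by 1.31 and 1.16. Fmo5, with -0.41, was not called.

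Enzymes that conjugate glutathione and glucuronic acid came next. Of 23 glutathione transferases 8 were higher in females, led by Mgst3 (1.92), Gstt3 (1.38) and Gstt2 (1.02), and 2 in males. Both of these belong to the pi class: Gstp1 ranged from 16.57 to 16.97 in males and from 13.51 to 14.97 in females, a difference of -2.51 (SE 0.23, adjusted p = 1.99e-08), and Gstp2 differed by -1.36. Of 14 UDP-glucuronosyltransferases only Ugt1a6b, by its brightest probe (0.72), and Ugt2b1 (-1.68) were called. A second probe named Ugt1a6b, at 90004249 on chromosome 1 where the first lies at 90115493, differed by -0.12 and was not called. A difference of Ugt1a6b itself is therefore not established. The first probe, with processed signals at the 75th percentile, was under the fold limit with 0.50.

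Enzymes of steroid hormones differed in both directions, with 4 of 27 genes higher in females and 5 in males. Hsd3b5, a liver 3-ketosteroid reductase, lay between 13.77 and 14.19 in males (median 13.99) and between 6.10 and 8.72 in females (median 7.95), a difference of -6.44 (SE 0.33, adjusted p = 2.70e-13). Its neighbours on chromosome 3, Hsd3b2, Hsd3b3 and Hsd3b6, were also higher in males, with -1.32, -0.86 and -0.86. Hsd3b1, in the same cluster, was not well above background in any male and was at least 2.15-fold higher in females (adjusted p = 0.00775), where it ranged from 4.95 to 8.06. Srd5a1, the steroid 5-alpha-reductase, ranged from 14.03 to 14.53 in males and from 11.73 to 12.79 in females, a difference of -1.92 (SE 0.16, adjusted p = 5.94e-09). Akr1c18, which inactivates progesterone, was higher in females by 2.78 (SE 0.36, adjusted p = 4.24e-06), and Hsd17b6 by 1.62 (SE 0.28, adjusted p = 0.000156).

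**Figure D3:**
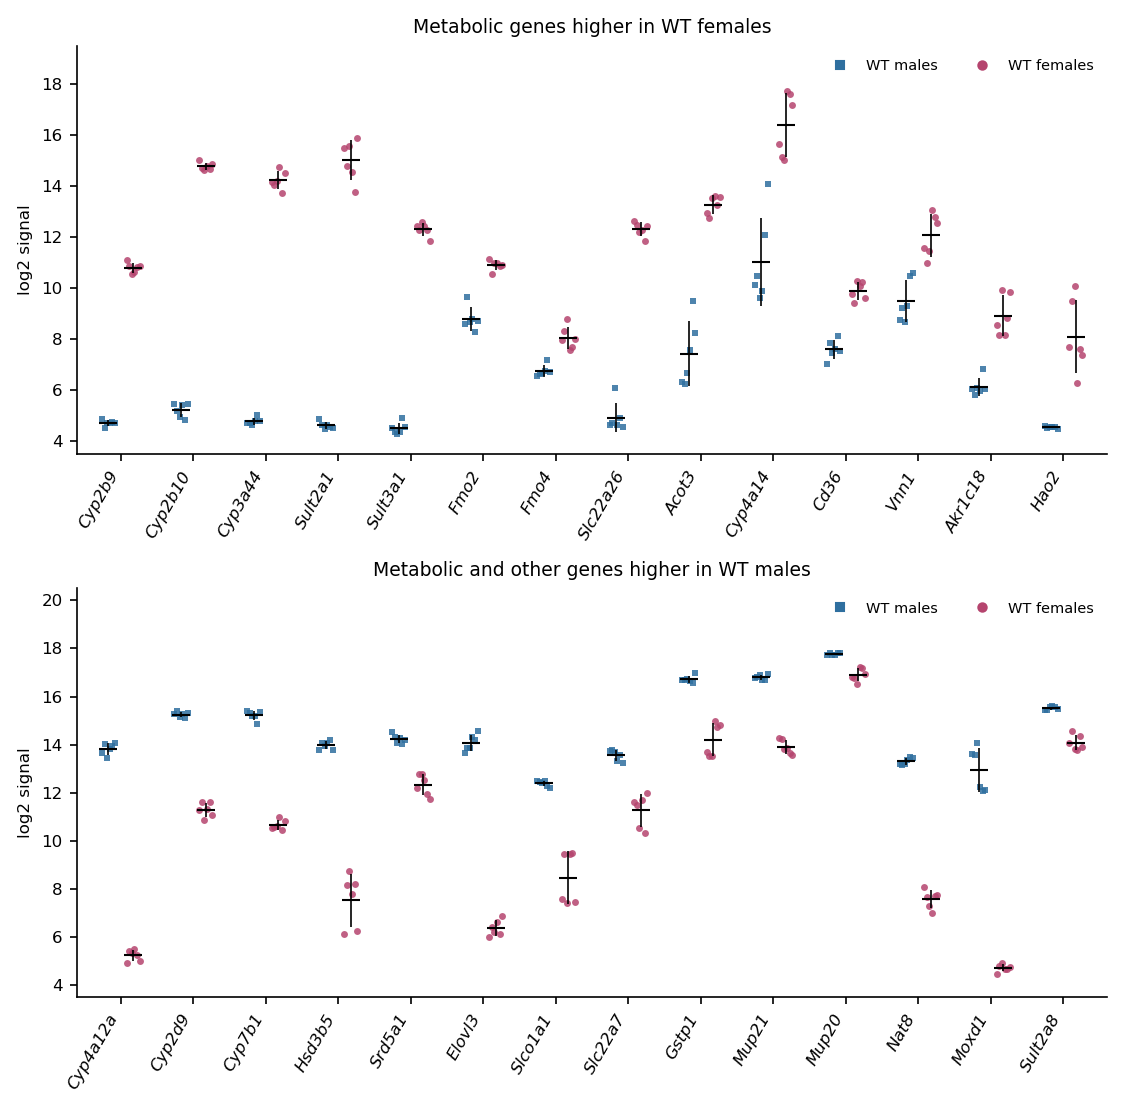
Log2 signal (y axis) of 28 genes on each WT array, with squares for the 6 males and circles for the 6 females; the horizontal mark is the mean and the vertical line 1 SD. For Sult2a1 the females lie between 13.75 and 15.89 and the males between 4.48 and 4.87, whereas the means of the sexes for Mup20 differ by -0.85.

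Of 32 uptake transporters of organic anions and cations 6 were higher in females and 4 in males. Of the 5 genes tested in the Slc22a cluster on chromosome 19, Slc22a26, Slc22a27 and Slc22a29 were higher in females, while Slc22a28 and Slc22a30 were not called, with -0.52 and -0.54. Slc22a26, well above background in 1 of 6 males (replicate 3, at 6.07), differed by 7.39 between the measured means (SE 0.25, adjusted p = 3.24e-17). Slc22a27 and Slc22a29 were not above background in any male and were at least 59.6-fold and at least 9.92-fold higher (adjusted p = 1.87e-18 and 6.58e-13). Slco1a1, which takes up steroid conjugates and bile acids, ranged from 12.19 to 12.48 in males and had a difference of -3.92 (SE 0.35, adjusted p = 1.15e-08). In females it stood between 9.44 and 9.50 in replicates 2, 4 and 5 and between 7.39 and 7.57 in replicates 1, 3 and 6. Its paralog Slco1a4 was higher in females by 2.24 (SE 0.23, adjusted p = 1.34e-07). Slc22a7 was higher in males, with -2.28, and so was Slc10a2, the sodium-dependent bile acid transporter known from the ileum, with -1.40. Of 37 ABC transporters, which use ATP to export their cargo, 8 were higher in females, such as the peroxisomal Abcd2 (2.71), Abcb1a (1.77) and Abcc3 (1.35), and 4 in males, such as Abcg2 (-1.12) and Abcb1b (-1.03).

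The major urinary proteins, pheromone carriers that the liver secretes for excretion in urine, were called higher in males for 5 of 11 genes and higher in females for 0. Mup21 ranged from 16.67 to 16.92 in males and from 13.58 to 14.27 in females, a difference of -2.89 (SE 0.14, adjusted p = 9.10e-14). Mup20, also named darcin, depended on the probe: the probe with the highest mean over the 24 arrays gave -0.85 (SE 0.13, adjusted p = 5.75e-05) and the other -3.20 (adjusted p = 2.43e-15). The first of these agrees at 54 of 60 bases with the probe of a Mup pseudogene, and Mup3 and Mup6 at 51 of 60 bases with each other. Mup19 and Mup18 differed by 0.03 (SE 0.07) and 0.01 (SE 0.06) and were not called.

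Bile acid genes gave 6 of 28 higher in females and 3 in males. Cyp7b1, the oxysterol 7-alpha-hydroxylase of the alternative pathway, ranged from 14.85 to 15.40 in males and from 10.44 to 10.98 in females, a difference of -4.55 (SE 0.27, adjusted p = 5.99e-12). Cyp39a1, which hydroxylates another oxysterol, went the other way by 1.41 (SE 0.13, adjusted p = 3.40e-08). Cyp7a1, the rate-limiting enzyme of the classic pathway, ranged from 10.60 to 11.36 in males and from 9.62 to 10.85 in females. Its difference of -0.60 (SE 0.21, adjusted p = 0.0402) was just past the fold limit, and the call was lost in 9 of 21 alternative settings, with an adjusted p from 0.0141 to 0.142 over all of them. Cyp8b1, which directs synthesis toward cholic acid, had a difference of -0.60 (SE 0.24, adjusted p = 0.0801) and was not called. It was called in 3 of 21 settings, with slide as a block (-0.75, adjusted p = 0.0232), with processed signals at the 75th percentile and without female 2.

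Genes of fatty acid oxidation were higher in females for 10 of 35 and in males for 0, with 33 of 35 differences above 0 and a median of 0.37. The acyl-CoA thioesterases Acot1 to Acot6, a cluster on chromosome 12 between 85334071 and 85452010, were higher in females for 6 of 6 members. Acot3 ranged from 6.25 to 9.50 in males (median 7.13) and from 12.76 to 13.60 in females (median 13.39), a difference of 5.84 (SE 0.56, adjusted p = 3.14e-08). Vnn1, a pantetheinase, and Cd36, a fatty acid carrier of the cell surface, differed by 2.56 (SE 0.42, adjusted p = 8.64e-05) and 2.28 (SE 0.36, adjusted p = 5.11e-05). For Vnn1 the animals highest for Cyp4a14 again stood above the others of their sex, with females 4, 5 and 6 at 13.06, 12.79 and 12.54 against 11.55 at most in the other females, and males 5 and 6 at 10.46 and 10.58 against 9.30 at most in the other males. Ppara itself ranged from 14.05 to 14.48 in males and from 14.14 to 14.56 in females and was not called (0.09, adjusted p = 0.611). Fgf21, a hormone of fasting, was called with a difference of 0.77 (adjusted p = 0.0299) but lost the call in 6 of 21 settings.

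Lipogenesis was called for 2 of 30 genes, both higher in males, and cholesterol synthesis for 0 of 22. Elovl3, an elongase of very long chain fatty acids, was one of the strongest male genes, from 13.66 to 14.56 in males and from 6.01 to 6.88 in females, a difference of -7.70 (SE 0.18, adjusted p = 1.09e-20). The synthetic enzymes Fasn and Scd1 differed by -0.25 (SE 0.39) and -0.10 (SE 0.21). Fasn ranged from 12.17 to 12.72 in males, while females 1, 2 and 3 (12.83, 13.35 and 13.54) lay above every male and females 4, 5 and 6 (11.06, 11.31 and 11.45) below every male, so that its mean difference describes neither set. Thrsp, a regulator of lipogenesis, was called higher in males (-0.93, adjusted p = 0.0335), with females 4, 5 and 6 (14.49, 15.08 and 15.70) far below the lowest male (16.63) and females 1, 2 and 3 at 16.39, 16.87 and 16.89, and the call was lost in 9 of 21 settings. Pltp, the phospholipid transfer protein, and Angptl8 led the 4 of 27 lipoprotein genes higher in females, with 1.62 and 1.19. Angptl8 overlapped between the sexes (12.14 to 13.88 in males and 12.66 to 15.29 in females) and lost its call in 5 of 21 settings. Glucose and amino acid metabolism stood near the background with 1 of 25 and 2 of 36 genes called. One of the latter was Hao2, a peroxisomal hydroxy acid oxidase, which was not above background in males, had 6.29 as its lowest and 7.66 as its median value in females and was at least 9.36-fold higher there (adjusted p = 5.96e-05).

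Several of the strongest male genes belong to no list. Moxd1, a relative of dopamine beta-hydroxylase, was not above background in females (4.47 to 4.89), lay between 12.08 and 14.06 in males and was at least 281-fold higher there (adjusted p = 3.45e-07). Nat8f5 and Nat8, related N-acetyltransferases on chromosome 6, differed by -7.40 (SE 0.26) and -5.74 (SE 0.19). Tff3, a trefoil peptide, had -6.66 (SE 0.50), and the complement regulator Susd4 -4.74 (SE 0.16).

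The regulators of this program were compared next. Of 18 genes of the growth hormone axis 5 were higher in females and 1 in males, and of 42 transcription factors 7 and 1. The receptor and its transducer were not called: Ghr ranged from 14.17 to 14.37 in males and from 13.63 to 14.14 in females (-0.38, SE 0.08, adjusted p = 0.000829), which is under the fold limit, Stat5b differed by 0.03 (SE 0.11) and Igf1, the secreted growth factor, by -0.10 (SE 0.07). The prolactin receptor Prlr, a relative of Ghr, ranged from 8.67 to 9.58 in males and from 11.27 to 12.10 in females, a difference of 2.61 (SE 0.20, adjusted p = 8.77e-10), and a second probe gave 2.65.

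Cish and Socs2, feedback inhibitors of growth hormone signalling, varied widely between males. Cish ranged from 6.79 to 13.11 in males (median 8.68) and from 9.77 to 12.41 in females (median 11.69). Male replicate 2 was above all females for Cish, at 13.11, and was also the highest male for Socs2, at 11.65, while male replicate 6 was the lowest for both. Onecut1, encoding HNF6, had its highest male value (14.23) and its lowest (10.35) in these same animals, although it was not called (1.61, SE 0.60, adjusted p = 0.0563) and was singled out after its values were seen. Cish and Socs2 passed the threshold with differences of 2.20 (SE 0.76, adjusted p = 0.0394) and 1.78 (SE 0.53, adjusted p = 0.0186), and lost it in 10 and 3 of 21 settings. Further probes of Socs2 differed by 1.81 and 1.51 and were called higher in females, while a dimmer one differed by 0.53 and was under the fold limit. Egfr, the receptor of epidermal growth factor, was higher in males by its brightest probe (-1.09, adjusted p = 0.0316), lost in 8 of 21 settings, and by 2 further probes (-1.76 and -1.45).

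**Figure D4:**
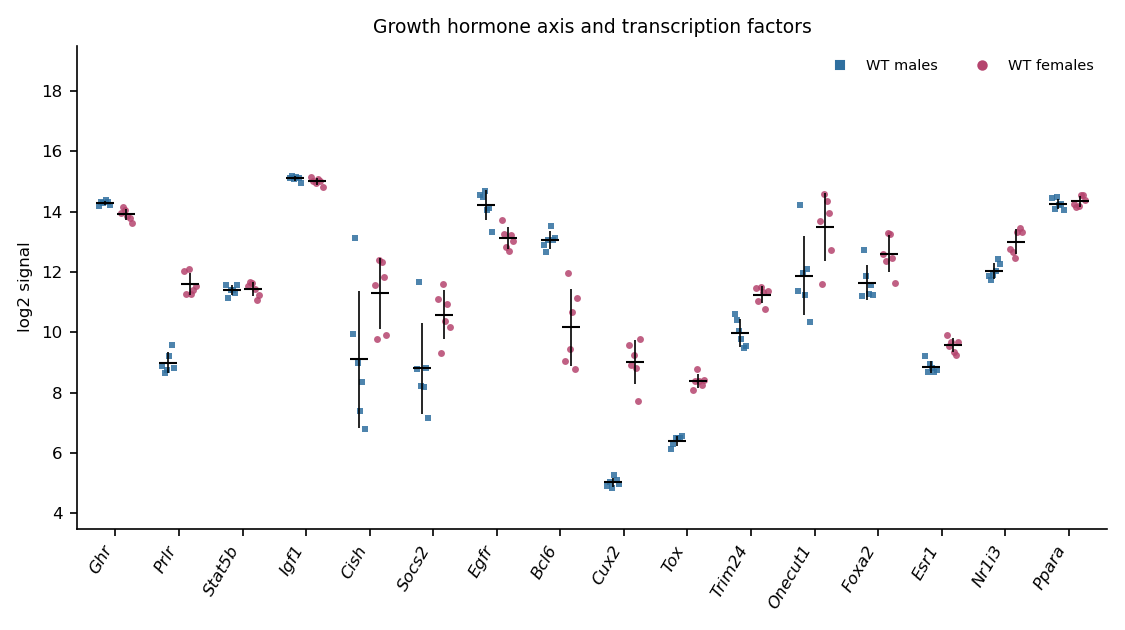
Log2 signal (y axis) of 16 genes of the growth hormone axis and of transcription factors on each WT array, with squares for males, circles for females, a horizontal mark for the mean and a vertical line for 1 SD. The males spread from 6.79 to 13.11 for Cish and the females from 8.79 to 11.96 for Bcl6, while Cux2, Tox and Prlr separate the sexes with narrow spread in males.

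Transcription factors known for sex-biased expression followed. Bcl6 ranged from 12.65 to 13.53 in males (median 13.06) and from 8.79 to 11.96 in females (median 10.04), a difference of -2.88 (SE 0.54, adjusted p = 0.000459). Cux2 ranged from 4.85 to 5.27 in males (well above background on 1 of 6 arrays) and from 7.72 to 9.78 in females, a difference of 3.98 (SE 0.27, adjusted p = 5.76e-11) between the measured means. Tox, an HMG-box factor, differed by 1.97 (SE 0.15, adjusted p = 5.06e-10) and Trim24, a coregulator of nuclear receptors, by 1.27 (SE 0.17, adjusted p = 6.22e-06). Nr1i3 itself, the gene of CAR, ranged from 11.74 to 12.42 in males and from 12.46 to 13.44 in females, a difference of 0.96 (SE 0.15, adjusted p = 6.49e-05). The estrogen receptor Esr1 was higher in females by 0.74 (SE 0.11, adjusted p = 1.72e-05) by its brightest probe. Dimmer probes of Esr1 differed by 0.75 and 0.59 and were called higher in females, while another differed by 0.23 (adjusted p = 0.248) and was not called.

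Promoter sequences of the genes were read from RefSeq (GRCm38.p6, windows of 300 bases from 250 before to 50 after a start site). Tested autosomal genes had 14658 such windows. The STAT-type motif TTCNNNGAA, which reads the same on both strands, was present in 7.44% of all windows, in 8.81% of those of genes higher in females and in 7.76% of those of genes higher in males. The motif ATCGAT, a palindrome of the kind bound by CUX proteins, was rare, in 115 of all 14658 windows (0.785%). It was in 2 of 704 windows of genes higher in females (0.284%) and 5 of 438 of those higher in males (1.14%). No test was made, and a match describes letters only. Of the 125 genes named by rule 93 had a window, and 13 had one with TTCNNNGAA. Of these, Cish and Bcl6 are shown as regulators of the growth hormone axis, and Sult3a1, Slc22a26 and Moxd1 as genes with some of the largest differences. They were chosen after their values were seen and are printed from 5′ to 3′ with the matches to TTCNNNGAA in capitals. The Cish window spans chr9:107296409-107296708 on the plus strand, with matches that begin at bases 1 and 12 of the transcript. The Bcl6 window spans chr16:23981234-23981533 on the minus strand, with matches at positions -168, -122 and -88 from the start site, and another window of this gene also holds a match. The windows of Sult3a1 (chr10:33857472-33857771, plus strand), Slc22a26 (chr19:7802618-7802917, minus strand) and Moxd1 (chr10:24223267-24223566, plus strand) hold 1 match each.
Cish: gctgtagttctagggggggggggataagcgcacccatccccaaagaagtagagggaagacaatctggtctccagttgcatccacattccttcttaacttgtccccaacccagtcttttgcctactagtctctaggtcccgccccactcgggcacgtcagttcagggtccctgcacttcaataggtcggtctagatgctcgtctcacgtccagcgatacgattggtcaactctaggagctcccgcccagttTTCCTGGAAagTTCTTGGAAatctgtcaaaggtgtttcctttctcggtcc
Bcl6: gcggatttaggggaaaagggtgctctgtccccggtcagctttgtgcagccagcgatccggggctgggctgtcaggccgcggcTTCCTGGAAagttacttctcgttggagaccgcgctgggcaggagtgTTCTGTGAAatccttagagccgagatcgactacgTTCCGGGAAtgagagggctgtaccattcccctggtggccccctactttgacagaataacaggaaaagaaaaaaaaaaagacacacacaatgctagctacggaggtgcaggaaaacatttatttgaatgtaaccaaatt
Sult3a1: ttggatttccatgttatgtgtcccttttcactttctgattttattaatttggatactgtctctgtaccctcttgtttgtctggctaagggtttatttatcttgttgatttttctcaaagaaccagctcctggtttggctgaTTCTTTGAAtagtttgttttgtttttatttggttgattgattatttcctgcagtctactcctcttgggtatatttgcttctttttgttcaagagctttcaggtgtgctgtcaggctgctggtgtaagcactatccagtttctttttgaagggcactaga
Slc22a26: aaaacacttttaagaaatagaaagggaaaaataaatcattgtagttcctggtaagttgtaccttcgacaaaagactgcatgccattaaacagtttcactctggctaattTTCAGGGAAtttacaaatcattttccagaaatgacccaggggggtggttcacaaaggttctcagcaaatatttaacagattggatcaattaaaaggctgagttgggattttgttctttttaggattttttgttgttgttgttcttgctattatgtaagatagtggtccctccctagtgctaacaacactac
Moxd1: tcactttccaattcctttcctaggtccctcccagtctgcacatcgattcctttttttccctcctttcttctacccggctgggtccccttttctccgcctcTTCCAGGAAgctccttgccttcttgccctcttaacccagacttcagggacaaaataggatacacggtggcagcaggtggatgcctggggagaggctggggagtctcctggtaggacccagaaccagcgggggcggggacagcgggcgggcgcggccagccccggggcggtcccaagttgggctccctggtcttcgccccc

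Among immune genes, markers of Kupffer cells were higher in females for 15 of 19 genes and above 0 for 19 of 19, with a median difference of 0.83. Their summed linear signal ranged from 19000 to 37770 in males (median 24470) and from 35740 to 54320 in females (median 49680), so that the groups overlapped in this sum. Clec4f, the lectin that marks these cells, ranged from 10.96 to 12.11 in males and from 12.14 to 12.65 in females, a difference of 0.91 (SE 0.18, adjusted p = 0.000702). Folr2, a folate receptor of resident macrophages, ranged from 8.36 to 9.78 in males and from 10.02 to 10.50 in females, a difference of 1.19 (SE 0.21, adjusted p = 0.000171). Adgre1, the F4/80 antigen, and Timd4 differed by 0.76 and 0.94. The 4 members not called were the scavenger receptors Marco (0.22, SE 0.51, adjusted p = 0.801) and Cd163 (0.29, SE 0.16, adjusted p = 0.188), Mpeg1 (0.23) and Fcgr1 (0.47).

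MHC class II genes, which present antigen on macrophages, dendritic cells and B cells, were higher in females for 7 of 10 genes, with a median of 0.76. H2-Ab1 ranged from 11.37 to 12.33 in males and from 12.39 to 13.18 in females (0.78, SE 0.22, adjusted p = 0.0144), and the protease Ctss, which processes the invariant chain, differed by 0.95 (SE 0.21, adjusted p = 0.00186). The invariant chain Cd74 differed by 0.79 (adjusted p = 0.0103). MHC class I genes, which most nucleated cells express, were called for 1 of 28. This was H2-Q1 (0.93, adjusted p = 0.0387), whose call was lost in 11 of 21 settings. Among innate sensors 3 of 28 were higher in females, with the endotoxin coreceptor Cd14 at 1.24 (SE 0.17, adjusted p = 9.80e-06), the beta-glucan receptor Clec7a at 0.86 and the alarmin Il33 at 0.76. Under normexp background correction Il33 fell below the fold limit, with 0.58.

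Lymphocyte genes pointed the same way. T and NK cell markers were higher in females for 11 of 23 genes, with a median of 0.52. Gzma, a granzyme, ranged from 6.28 to 7.03 in males and from 7.49 to 8.43 in females, a difference of 1.40 (SE 0.23, adjusted p = 9.49e-05). Ccl5, a chemokine that these cells release, ranged from 8.12 to 8.82 in males and from 9.40 to 9.99 in females (1.14, SE 0.22, adjusted p = 0.000556). Cd3d, a chain of the T cell receptor complex, ranged from 5.40 to 5.86 and from 6.51 to 7.16 (1.02, SE 0.19, adjusted p = 0.00029). Their summed signal did not follow, since Cd4, the brightest probe of the list, differed by -0.39. It ranged from 15340 to 17440 in males and from 11700 to 20450 in females, and without Cd4 from 5121 to 6534 and from 5910 to 7749. B cell markers were called for 3 of 11 genes. Of these Cd79b differed by 1.1 (SE 0.21, adjusted p = 0.000407) and Ms4a1, at 0.65, was well above background in 1 male and 5 females. Ms4a1 lost its call in 5 of 21 settings and had a difference of -0.0066 on slide 3. The summed signal of the list ranged from 643.7 to 794.5 in males and from 828.9 to 1160 in females, without overlap.

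Neutrophil and monocyte markers were higher in females for 3 of 15, with 13 of 15 differences above 0 and a median of 0.53. The largest was Ly6c1, also present on endothelial cells, which ranged from 10.39 to 11.11 in males and from 12.99 to 13.61 in females, a difference of 2.53 (SE 0.15, adjusted p = 4.78e-12). A second and dim probe of Ly6c1 differed by 0.20 and was not called. S100a8, a defining neutrophil gene, ranged from 5.12 to 7.43 in males and from 6.23 to 8.65 in females and was not called (1.28, SE 0.54, adjusted p = 0.0961). The summed signal of these markers ranged from 40420 to 47050 in males and from 52020 to 63040 in females. Without Ly6c1, left out after its values were seen, the sums overlapped, with 38860 to 45540 in males (median 42660) and 41900 to 54010 in females (median 46920). Both sums were mostly Csf3r, the brightest probe of the list, which differed by 0.09. Without Csf3r but with Ly6c1, the sums ranged from 5595 to 8564 in males and from 14500 to 20420 in females. Ly6c1 alone ranged from 1338 to 2208 and from 8126 to 12520. Endothelial markers were called for 3 of 12 genes and had a median of 0.52, stellate cell markers for 2 of 12 with a median of 0.14, and cholangiocyte markers for 0 of 7. Summed, the endothelial signal ranged from 12280 to 16750 in males and from 16060 to 26550 in females, the stellate cell signal from 21260 to 29620 and from 30790 to 37210, and the hepatocyte signal from 2389000 to 2542000 and from 2472000 to 2590000. Without Dcn, the brightest stellate cell probe, the stellate sum overlapped, with 5944 to 7827 in males (median 6400) and 4752 to 8784 in females (median 6598). The part of cell composition in the immune differences was not tested.

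**Figure D5:**
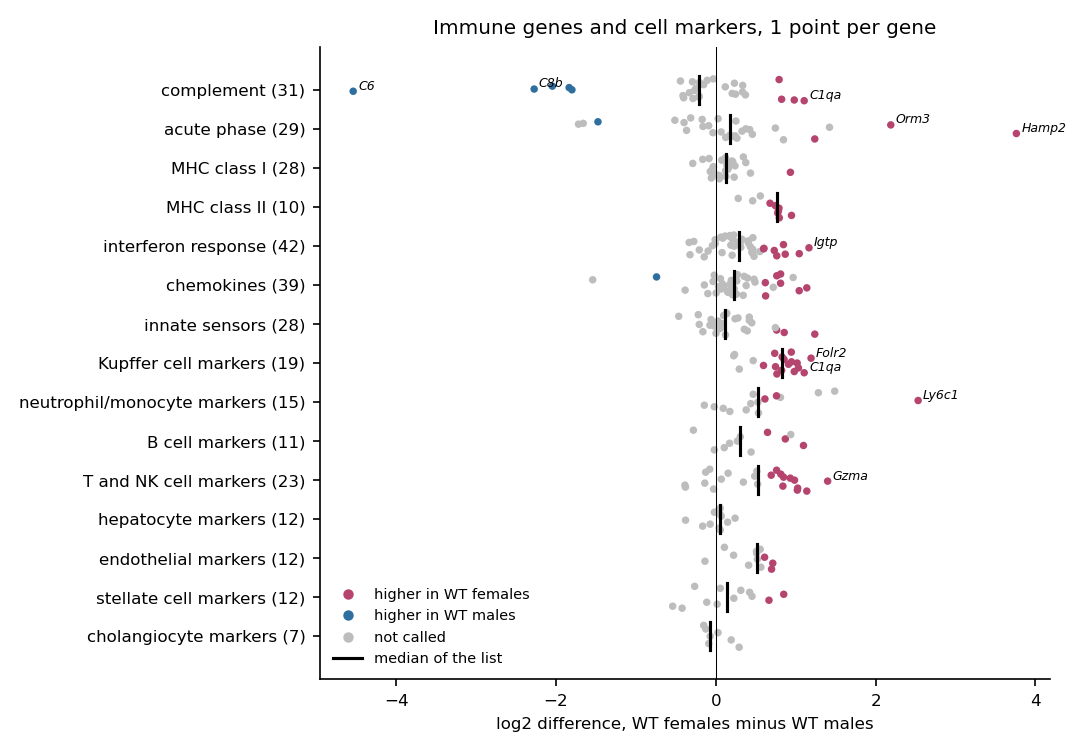
Difference between WT females and WT males (x axis, log2) for each gene of 11 immune lists and 4 lists of other liver cells, with the number tested in parentheses and a black bar at the median. Kupffer cell and MHC class II genes lie right of 0 throughout (medians 0.83 and 0.76), hepatocyte markers lie around 0 (median 0.05), and C6 and C8b stand far to the male side.

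Interferon response genes were higher in females for 8 of 42, with 33 of 42 differences above 0 and a median of 0.29. The 3 largest were GTPases induced by interferon-gamma. Igtp ranged from 10.96 to 11.22 in males and from 11.83 to 12.77 in females (1.17, SE 0.14, adjusted p = 9.64e-07), and Gbp3 and Gbp2 differed by 1.04 and 0.87. Chemokines and their receptors were higher in females for 7 of 39, including Ccl24 (1.04, SE 0.22), and higher in males for 1, Cxcl14 (-0.74, adjusted p = 0.025), which lost its call in 7 of 21 settings. Cxcl10 ranged from 7.57 to 9.37 in males and from 8.40 to 8.88 in females and was not called (0.48, adjusted p = 0.188). Without male 1, the highest at 9.37, it was called (0.71, adjusted p = 0.024).

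Of 31 complement genes 4 were higher in females and 5 in males, and the ends of the cascade differed in direction. The C1q chains, which start the classic pathway and are made by macrophages, were higher in females: C1qa ranged from 9.22 to 10.20 in males and from 10.42 to 11.05 in females (1.11, SE 0.21, adjusted p = 0.000407), and C1qb and C1qc differed by 0.98 and 0.82. Of the 7 components of the membrane attack complex tested, 4 were higher in males. C6 ranged from 13.14 to 13.95 in males (median 13.65) and from 8.62 to 9.41 in females (median 9.14), a difference of -4.54 (SE 0.19, adjusted p = 2.68e-15). C8b, C9 and C8a differed by -2.27 (SE 0.32), -1.84 (SE 0.26) and -1.80 (SE 0.40), and the groups did not overlap for any of these 3. The other members Hc, C8g and C7 had differences of -0.21, -0.25 and -0.27 and were not called. C7 was dim, with means of 5.52 in males and 5.25 in females. Cfd, known as adipsin and made chiefly by adipocytes, ranged from 5.49 to 9.79 in males and from 4.96 to 5.17 in females (-2.05, SE 0.65, adjusted p = 0.027), and the call was lost in 5 of 21 settings. Of the 5 adipocyte markers tested 2 were called, Cfd and Car3 (-0.89), both higher in males. The summed signal of these 5 ranged from 55820 to 113900 in males and from 22860 to 69880 in females. Car3 made up most of it, and without Car3 the sum ranged from 826.5 to 1996 in males (median 1081) and from 725.7 to 1393 in females (median 1083). The part of adipocytes in the value of Cfd was not tested.

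Of 29 acute phase genes 3 were higher in females and 1 in males. Hamp2, a relative of the iron hormone hepcidin, ranged from 11.89 to 12.57 in males and from 14.79 to 17.44 in females, a difference of 3.76 (SE 0.42, adjusted p = 4.06e-07). Orm3, an orosomucoid, was called at 2.19 (SE 0.68, adjusted p = 0.0234) with overlapping groups, 5.95 to 9.28 in males and 7.74 to 11.44 in females, and lost its call in 3 of 21 settings. Other members varied widely within each sex. Saa1, serum amyloid A, ranged from 12.58 to 17.87 in males and from 11.78 to 16.73 in females (-1.72, SE 0.90, adjusted p = 0.186). Lcn2, lipocalin 2, ranged from 8.15 to 12.94 and from 9.24 to 15.28 (1.42, SE 1.04, adjusted p = 0.359). Males 1 and 3 were the 2 highest of their sex and females 4 and 6 the 2 highest of theirs for both Saa1 and Lcn2. Saa4, the constitutive member, was higher in males by -1.48 (SE 0.36, adjusted p = 0.00434).

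The same contrast was set beside that of the CAR-/- mice, whose females and males were compared in the same model. Of the 1433 genes called in WT mice 25 (1.74%) had an adjusted p below 0.05 for the interaction of genotype and sex, beside 0.402% of all 21122 autosomal genes. The 1433 genes were selected on the WT difference, which is itself a term of the interaction, so that this share and the direction of the interactions are partly set by the selection, and nothing is read from them. Among the largest differences, Cyp4a12b gave -9.08 in WT and -9.49 in CAR-/- mice, and Elovl3 -7.70 and -7.64, with an adjusted p of 0.439 and 0.971 for the interaction. Cyp2b10 gave 9.56 in WT and 8.45 in CAR-/- mice, with an adjusted p of 0.608 for the interaction (limma). C6 had -4.54 and -3.06 (1.48, SE 0.27, adjusted p = 0.0157), and Slco1a1 -3.92 and -6.22 (-2.30, SE 0.50, adjusted p = 0.0403). Tox had 1.97 and 0.83 (-1.14, SE 0.21, adjusted p = 0.0157). Bcl6 had -2.88 in WT and 0.57 in CAR-/- mice (3.45, SE 0.77, adjusted p = 0.0467), where males ranged from 9.27 to 12.78 and females from 9.72 to 12.27. Nr1i3, the gene targeted in CAR-/- mice, ranged from 9.75 to 10.05 in CAR-/- males and from 9.31 to 10.01 in CAR-/- females, below all 12 WT arrays. Its difference between the sexes was 0.96 in WT and -0.21 in CAR-/- mice (-1.17, SE 0.22, adjusted p = 0.0160).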

How the data were processed

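Livers of 24 mice (6 per genotype and sex) were hybridized to one-color Agilent arrays. According to the authors, raw median signal intensities were filtered, log2 transformed and quantile normalized, and these deposited log2 values of 31343 probes were used; the filter was not specified. The deposited scanner files, with intensity values from Feature Extraction 10.10.1.1, gave probe positions (mm9), background flags and alternatives. A model with 4 group means was fitted to all 24 arrays with limma 3.58.1 in R 4.3.3 (lmFit, eBayes), and p-values were adjusted over all 31343 probes. No probe was saturated, and the number of arrays limits the precision. On simulated data with 200 changed probes (log2 difference 1), 195 were called.

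Members and gene lists were chosen with earlier results of these data known. Named genes were 42 chosen genes (Cyp3a41a was not found), the 10 largest non-overlapping differences per direction, and up to 3 called genes per list and direction. Mice were not treated as pairs. The deviations of males and females of the same replicate number correlated from -0.29 to 0.29, over 0.1 in 3 of 6 pairs. This does not settle whether the numbers pair mice. For some genes, picked after their values were seen, replicates 1 to 3 stood apart from 4 to 6. In males, Moxd1 was at least 13.56 in the former and at most 12.22 in the latter. In females, Hamp2 was at least 16.42 against at most 15.29. Cxcl14 did so in both sexes. What sets them apart was not tested. Alternatives were other background corrections and scalings, a probe filter, blocks, WT arrays alone, other fold limits, the methods' t-test and leaving out arrays. Results of some genes are not reported here.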

Additional observations from a re-analysis of the deposited data

Results flagged for a closer look

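Of 250 groups of 6 arrays examined over the 125 named genes, 11 held an array that lay far from the other 5 of its sex, where chance at 1 in 20 would give 12.5. Among males, these were 6.81 for Akr1c18 and 7.17 for Fmo4 (both replicate 5), 4.87 for Sult2a4 (replicate 5, where no male was well above background), 9.66 for Fmo2 and 11.65 for Socs2 (both replicate 2), 6.07 for Slc22a26 (replicate 3), 11.31 for Mup6 (replicate 4, low) and 13.41 for Nat8f5 (replicate 6). Among females, they were 7.16 for Cd3d and 9.68 for Hsd17b6 (both replicate 3, the latter low) and 4.96 for Cfd (replicate 2, low). These are log2 signals.

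For 7 of the named genes reported here the difference between the sexes in CAR-/- mice, minus that in WT mice, passed an adjusted p of 0.05 for the interaction (limma). It was -0.96 for Abcg5, 3.45 for Bcl6, 1.48 for C6, -1.17 for Nr1i3, -2.30 for Slco1a1 and -1.14 for Tox, each called in WT mice. It was 3.33 for Marco, which was not called in WT mice (0.22) and differed by 3.55 in CAR-/- mice.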

How the results depend on the processing

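Under 21 other settings of the fit, 92 of the 111 called genes named by rule kept their call in every one, 19 lost it in at least 1, 2 gained a call and 0 changed direction. Scaling of the processed signals to the 75th percentile gave 1266 genes higher in females and 1043 in males, with 53 metabolic genes higher in males. Without a minimum fold there were 2466 and 2328, with 62 metabolic and 17 immune genes higher in males and 43 genes with an interaction. Above 2-fold there were 245 and 252, with 16 immune genes higher in females and 13 with an interaction, and the share higher in females was 49.3% instead of 57.7%. Normexp background correction gave 590 and 465, and the methods' t-test 847 and 627, or 738 and 530 after Benjamini-Hochberg. The replicate block gave 825 and 622 and kept 99.5% of the calls.

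Leaving out 1 array at a time gave 721 to 863 genes higher in females and 529 to 673 in males. It gave 76 to 83 and 32 to 37 metabolic genes, 51 to 62 and 5 to 7 immune genes, and 16 to 28 genes with an interaction. The last count was 16 without WT male replicate 1, 3 or 6 or WT female replicate 4. Single arrays decided the calls of Cish (lost without male 3, 4, 5 or 6 or female 1, 3, 4 or 5), Socs2 (male 6 or female 3), Cfd (male 2, 4 or 5), Orm3 (male 6, female 4 or 6), Cyp7a1 (male 2, 3 or 4, female 2, 4, 5 or 6), Egfr (male 1, 2 or 3, female 3, 4 or 6), Fgf21 (male 1, 2 or 3, female 4 or 5), Angptl8 (male 1 or 6, female 2 or 3), Cxcl14 (male 1, 2 or 3, female 4 or 5), Ms4a1 (female 3 or 4) and H2-Q1 (male 1, 2, 3, 4 or 6, female 1, 2 or 3). Thrsp lost its call without male 2, 4, 5 or 6 or female 4, 5 or 6, Pklr without male 2, 3, 4 or 6 or female 4, 5 or 6, Abcg5 without female 6 and Ly6g without female 1. The interaction was not refitted for WT arrays alone, without slide 4 or by t-test. Over all genes with several probes, 3 had probes called in opposite directions. Dim probes limit folds to lower bounds.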
